A study of Mus musculus with 12 samples.

Results

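The late response of tbGFP-negative mouse embryonic stem cells to sorbitol was measured by setting cells given sorbitol for 24 h against untreated cells (0 h). The comparison took 4 of the 12 libraries of the study, 2 from each group, chosen by the time and sort labels alone. The cells of both groups were E14, a mouse embryonic stem cell line, with the genotype 2C::3xtbGFP, in which turboGFP (tbGFP) reports the 2-cell-like state, and both were the sorted fraction without tbGFP signal. The other 8 libraries came from tbGFP-negative cells at 6 h of sorbitol and from tbGFP-positive cells at 0, 6 and 24 h. All groups, the untreated cells included, had been expanded with the kinase inhibitors CHIR99021 and PD0325901, were then plated without them in serum medium with LIF, and were collected after 48 h of culture. The sort followed the treatment, so cells that were tbGFP-negative at 24 h need not descend from cells that were tbGFP-negative at 0 h. The labels do not say whether the 2 libraries of a group came from separate cultures, so a p-value here covers the spread between libraries only, and that spread may be technical. Whether treated and untreated cells were collected on the same day is not given, and such a difference and the treatment cannot be told apart.

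Sorbitol is a sugar alcohol that draws water out of cells. Cells under hyperosmotic stress regain volume by importing ions and then by taking up or making compatible osmolytes, small solutes such as inositol that do not disturb proteins. The stress also engages kinases and the transcription factor p53, and cells that adapt can change their protein synthesis and cycling. In mouse embryonic stem cell cultures a rare subset enters a 2-cell-like state, marked by transcripts of the 2-cell embryo such as the Zscan4 genes, and the tbGFP-negative fraction is the large remainder.

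Total RNA was sequenced to 7900178 and 6415064 counts in the 24 h libraries and to 2306870 and 7344399 counts in the 0 h libraries. Replicate 1 at 0 h was the shallowest of all 12 libraries. Levels are given as CPM, counts scaled to a common library total and with edgeR's TMM factors, on which 3 counts correspond to 0.309 and 0.379 CPM in the 24 h libraries and to 1.12 and 0.34 CPM in the 0 h libraries. Since the deposited counts are per transcript and shared reads may have been left out, a level is compared between libraries and never between genes. Log2 fold changes stand with their standard error (SE), and adjusted p-values come from edgeR's quasi-likelihood test over 19384 genes, with a threshold of 0.05.

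Of the embryonic stem cell markers, Pou5f1 had 678 and 679 CPM at 24 h, against 1369 and 1201 CPM at 0 h, and Sox2 had 699 and 724 CPM at 24 h, against 477 and 404 CPM at 0 h. Nanog had 24.2 and 20.9 CPM at 24 h, against 11.9 and 13.5 CPM at 0 h, and Zfp42 had 10.8 and 11.3 CPM at 24 h, against 8.59 and 9.65 CPM at 0 h. Neither Nanog nor Zfp42 reached the threshold (adjusted p = 0.41 and 0.986). Both 24 h libraries lay above both 0 h libraries in 36.8% of all tested genes. The summed level of the 22 genes of a naive pluripotency list was 9629 and 9664 CPM at 24 h, against 9658 and 9290 CPM at 0 h. The summed level reached 378 and 368 CPM at 24 h, against 253 and 254 CPM at 0 h, for 15 primitive endoderm markers, and 108 and 126 CPM at 24 h, against 91.1 and 73.9 CPM at 0 h, for 14 trophectoderm markers. For 15 germ layer markers the sums were 65.4 and 70.4 CPM at 24 h, against 99.7 and 71 CPM at 0 h, and for 12 fibroblast markers 59.5 and 69.5 CPM at 24 h, against 51.9 and 42.5 CPM at 0 h. In each of these 4 lists between 2 and 5 markers had no counts in both 24 h libraries. None of 9 tested primitive endoderm markers and none of 6 tested fibroblast markers reached the threshold at 24 h against 0 h. The part of such cells in the results below was not tested. In bulk RNA, fewer cells of a type and less RNA per cell cannot be told apart.

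After 24 h of sorbitol 523 genes (2.7% of those tested) rose and 250 (1.29%) fell. Over the risen genes the median level was 18.7 CPM at 24 h, against 2.37 CPM at 0 h. Over the fallen genes it was 70.2 CPM at 24 h, against 161 CPM at 0 h. These medians are not compared between the risen and the fallen genes, because counting per transcript can lower the level of single genes. The median absolute log2 fold change was 2.78 among rises and 1.25 among falls, and 98 of the risen genes had no counts at 0 h. Protein-coding genes made up 360 of the rises and 230 of the falls. Library values of the 2 groups did not overlap in 7140 tested genes (36.8%) that were higher at 24 h and in 3671 (18.9%) that were lower. Values that lie apart are therefore common among all tested genes. The median over all tested genes was a log2 fold change of 0.23, and it was 0.05 with upper-quartile factors, with which 50.2% of the called genes were higher in place of 67.7%. A fit of the 6 tbGFP-negative libraries alone, whose spread was not shared with the tbGFP-positive ones, called 1594 rises (9.6%) and 1603 falls (9.66%) among 16597 genes. List counts from this fit below are to be read beside those shares. Leaving out 1 library at a time left between 150 and 280 rises and between 89 and 120 falls, with 150 rises without replicate 2 at 0 h and 89 falls without replicate 1 at 0 h.

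**Figure D1:**
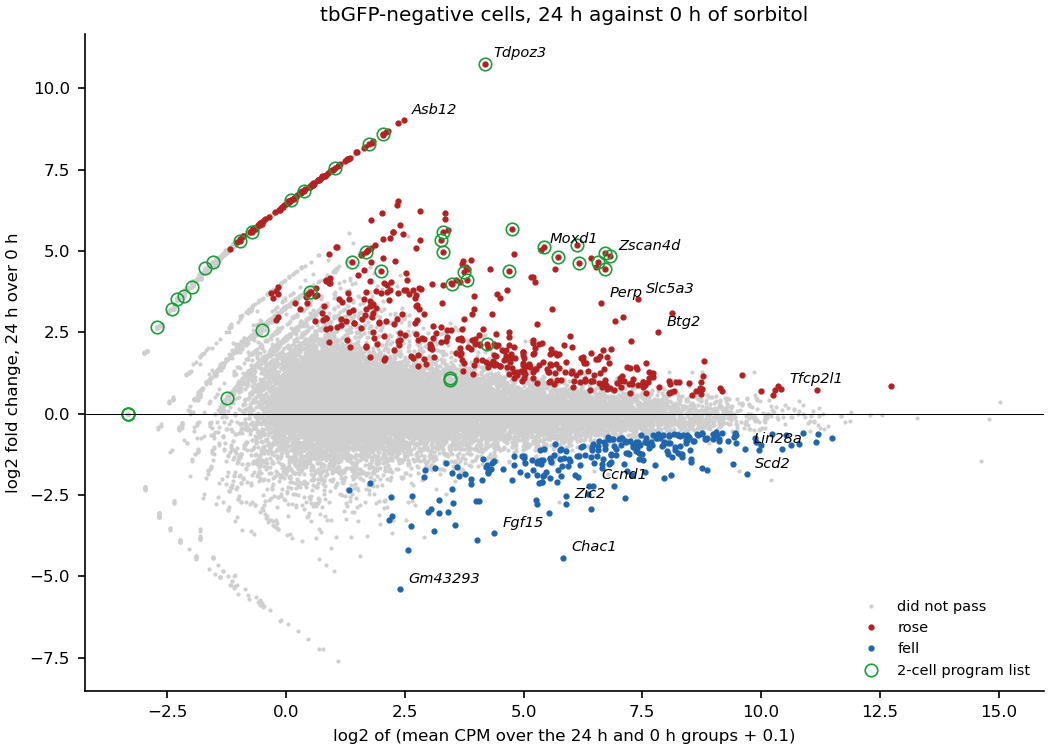
Log2 fold change (24 h over 0 h of sorbitol, y axis) of each tested gene in tbGFP-negative cells against its mean level (x axis, log2 of CPM). Red points are the 523 genes that rose, blue points the 250 that fell, grey points those that did not pass, and green rings the genes of the 2-cell program list. The straight line of points at the upper left holds genes with no counts at 0 h, whose fitted fold change depends on the prior count.

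Some genes of osmolyte and ion handling rose. Of 21 tested members of an osmolyte and cell volume list, 5 rose and none fell, and the median log2 fold change was 0.59, beside 0.23 over all genes. The fit of tbGFP-negative libraries alone called 11 rises and 1 fall. Slc5a3, the sodium-coupled myo-inositol transporter (chr16:92058322-92087473, plus strand), had 312 and 311 CPM at 24 h, against 25.8 and 28.1 CPM at 0 h. The groups were far apart, and the log2 fold change was 3.53 ± 0.25 (adjusted p = 5.65e-07). Akr1b3, the aldose reductase that makes sorbitol from glucose (chr6:34302434-34317478, minus strand), had 84.5 and 95 CPM at 24 h, against 26.1 and 32.7 CPM at 0 h. It rose by a log2 fold change of 1.6 ± 0.24 (adjusted p = 0.000717), and 48.9% of its counts lay on 1 transcript annotated with a retained intron. Aqp3, a channel for water and glycerol, had 72 and 62.7 CPM at 24 h, against 12.3 and 8.29 CPM at 0 h (log2 fold change 2.76 ± 0.54, adjusted p = 0.00754).

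Atp1b1, the beta subunit of the sodium pump, rose as well. It had 135 and 127 CPM at 24 h, against 69.1 and 71.2 CPM at 0 h, a log2 fold change of 0.9 ± 0.18 (adjusted p = 0.00871). Its call was lost without any 1 of the 4 libraries, with adjusted p up to 0.187, and that of Aqp3 without replicate 2 at 0 h (0.237), replicate 1 at 0 h (0.0656) or replicate 1 at 24 h (0.0678). Slc6a6, the taurine transporter, had 515 and 537 CPM at 24 h, against 402 and 386 CPM at 0 h, and did not pass (adjusted p = 0.279). It did in the fit of tbGFP-negative libraries alone (log2 fold change 0.3, adjusted p = 0.0448). Slc6a12, the betaine transporter, averaged 5.39 ± 2.07 CPM at 24 h and had no counts at 0 h (SD, n = 2 each, adjusted p = 0.0837). Nfat5, which switches on osmolyte genes, had 45 counts at 24 h and 30 at 0 h, all on a transcript annotated with a retained intron, and did not pass (adjusted p = 1).

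The osmolyte genes that rose were already high at 6 h. In this and the following comparisons of 3 times, the 6 h values share the 0 h or the 24 h libraries with the late comparison, so they are set side by side and not counted as support. Of all tested genes, 625 (3.22%) were higher and 235 (1.21%) lower at 6 h than at 0 h, and 701 (3.62%) were higher and 833 (4.3%) lower at 24 h than at 6 h. Slc5a3 had means of 26.9, 340 and 311 CPM at 0, 6 and 24 h, and its 24 h level did not pass against that at 6 h (log2 fold change -0.13, adjusted p = 0.811). Aqp3 and Atp1b1 likewise showed log2 fold changes of -0.01 and -0.02 from 6 h to 24 h. Slc38a2, a transporter that concentrates neutral amino acids, was highest at 6 h. Its mean was 1008, 3654 and 1455 CPM at 0, 6 and 24 h, and the 24 h level did not pass against 0 h (log2 fold change 0.53 ± 0.16, adjusted p = 0.101). Slc38a2 did pass at 24 h against 0 h in the fit of tbGFP-negative libraries alone (0.41, adjusted p = 0.000622).

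**Figure D2:**
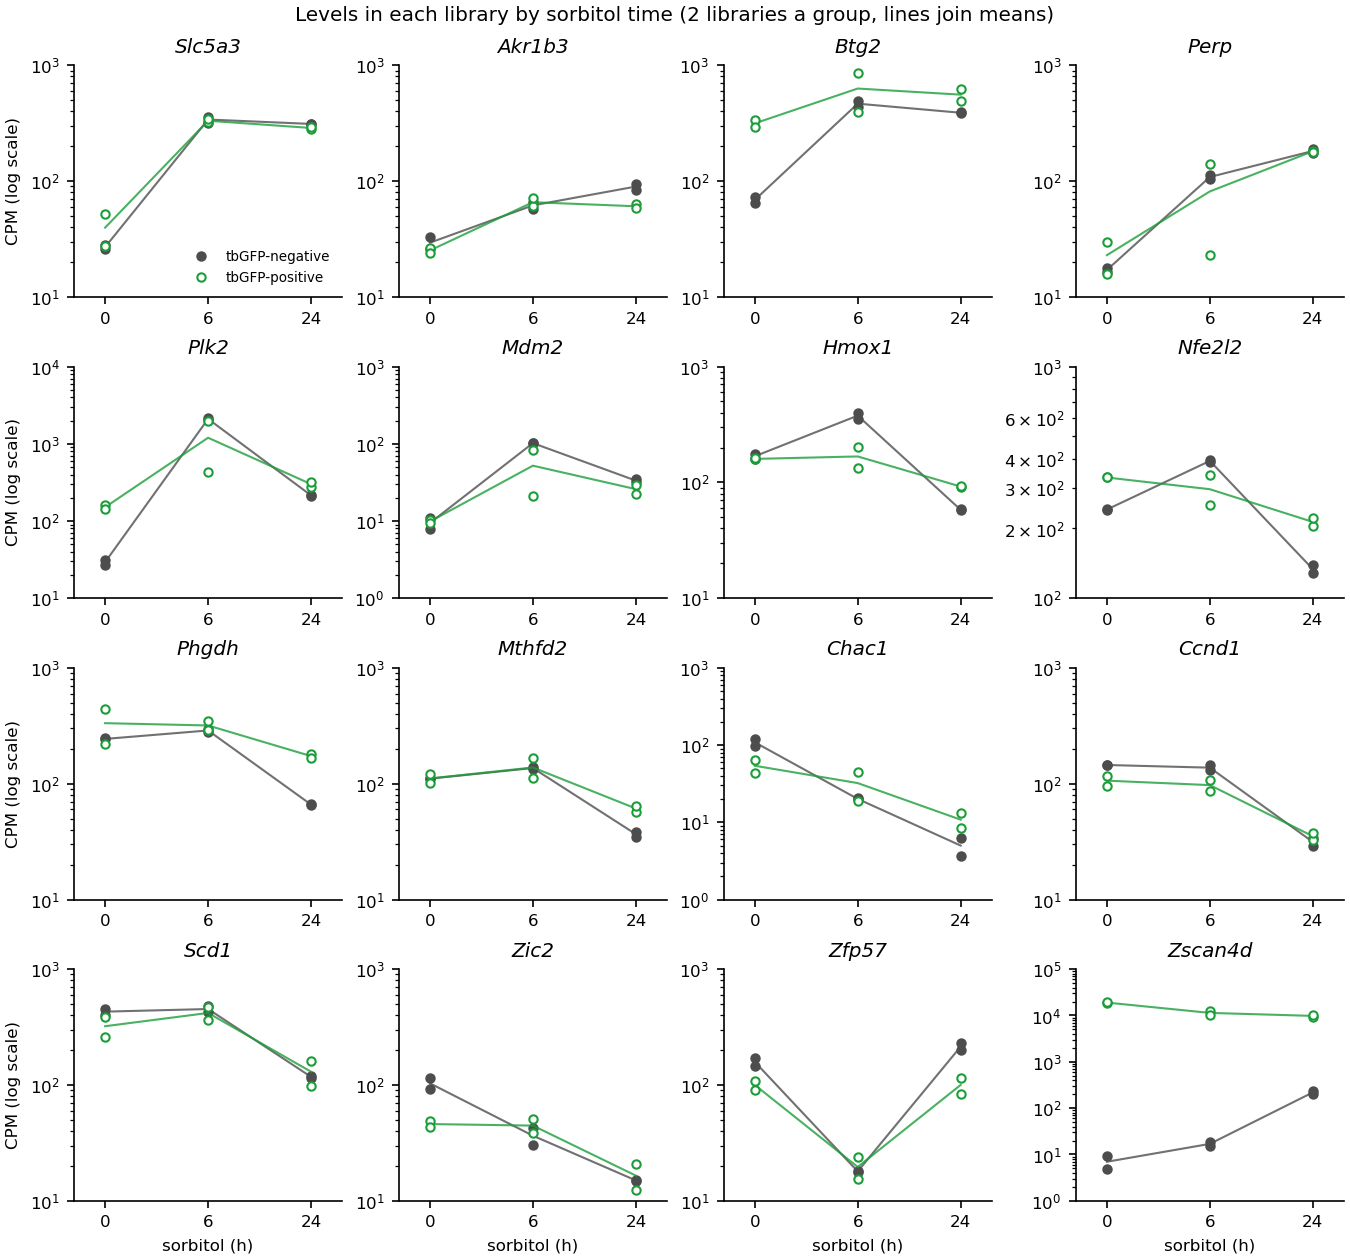
CPM (log scale, y axis) of 16 genes by hours of sorbitol (x axis). Each point is 1 library and lines join the means of 2 libraries, with filled grey points for tbGFP-negative and open green points for tbGFP-positive cells. In tbGFP-negative cells Slc5a3 and Btg2 stayed high at 24 h, Plk2 and Mdm2 were highest at 6 h, and Phgdh, Ccnd1 and Scd1 were low at 24 h alone.

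Targets of p53 were higher at 24 h than at 0 h in part of the list. Of 26 tested members 5 rose and none fell at 24 h, with a median log2 fold change of 1, and 10 rose and 1 fell in the fit of tbGFP-negative libraries alone. At 6 h 12 members were higher than at 0 h, and 8 were lower at 24 h than at 6 h. Btg2, an antiproliferative factor, had 392 and 386 CPM at 24 h, against 73.2 and 64.3 CPM at 0 h (log2 fold change 2.51 ± 0.28, adjusted p = 6.27e-05). Perp, a membrane protein of p53-driven apoptosis (chr10:18845020-18857073, plus strand), had 189 and 175 CPM at 24 h, against 16.4 and 17.8 CPM at 0 h (3.4 ± 0.61, adjusted p = 0.0066). Neither gene passed between 6 h and 24 h, with log2 fold changes of -0.26 for Btg2 and 0.75 for Perp (adjusted p = 0.638 and 0.49).

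Other p53 targets had come down from a higher level at 6 h. Plk2, a stress-induced polo-like kinase, had means of 29.3, 2098 and 214 CPM at 0, 6 and 24 h. At 24 h it was above 0 h (log2 fold change 2.86 ± 0.51, adjusted p = 0.00743) and below 6 h (-3.29, adjusted p = 0.00192). Mdm2, the ubiquitin ligase that limits p53, had 34.6 and 32.1 CPM at 24 h, against 7.84 and 11 CPM at 0 h (1.78 ± 0.46, adjusted p = 0.0432), and 85.4% of its counts lay on a transcript annotated with a retained intron. Cdkn1a, the p21 inhibitor of cyclin-dependent kinases, had 5.38 and 5.96 CPM at 24 h, against 0 and 0.682 CPM at 0 h (3.52 ± 0.92, adjusted p = 0.0432). Of the Cdkn1a counts 67.6% lay on a transcript annotated as a processed transcript and not as protein-coding. Bbc3, the apoptosis inducer PUMA, was back near its starting level, with means of 8.59, 94.1 and 10.3 CPM at 0, 6 and 24 h. Its 24 h value did not pass against 0 h (log2 fold change 0.22, adjusted p = 0.975) and was below that at 6 h (adjusted p = 0.00424). Mdm2 and Cdkn1a lost their calls without any 1 of the 4 libraries, with adjusted p up to 0.354 and 0.282. With upper-quartile factors neither passed, and over all settings that kept every library their adjusted p reached 0.0821 for Mdm2 and 0.0939 for Cdkn1a. Perp lost it without either 0 h library (0.0525 and 0.0809), and Plk2 without replicate 2 at 0 h (0.0606). Without a filter on low counts Perp and Plk2 did not pass, with adjusted p of 0.177 and 0.17. Among 15 tested BCL2 family genes Bcl2l11, the apoptosis inducer BIM, alone passed, with 62.6 and 55.3 CPM at 24 h, against 17.9 and 23.2 CPM at 0 h (1.5 ± 0.31, adjusted p = 0.00912, and up to 0.144 without 1 library).

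Immediate-early and heat shock genes rose in small numbers. Of 15 tested immediate-early genes 3 rose and none fell. Fos, a subunit of the AP-1 transcription factor, had 61.6 and 57.3 CPM at 24 h, against 16.4 and 10.6 CPM at 0 h (log2 fold change 2.18 ± 0.37, adjusted p = 0.00228, and 0.129 without replicate 2 at 0 h). Ier5 and Klf6, an early response gene and a zinc finger factor, rose by 1.2 ± 0.25 and 0.93 ± 0.19 on the log2 scale (adjusted p = 0.0103 and 0.0114). Ier5 was lower at 24 h than at 6 h (-2.32, adjusted p = 3.18e-05). Ier5 kept its call only without replicate 1 at 0 h, with an adjusted p of up to 0.38 without another library, and Klf6 lost it without any 1 (up to 0.197) and with upper-quartile factors (0.0537).

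Of 18 tested heat shock genes Hspa1a and Hspa1b, 2 near-identical inducible HSP70 genes whose reads the counting may have split, rose and none fell. The fit of tbGFP-negative libraries alone called 5 rises and 5 falls in this list, beside 9.6% and 9.66% of all its genes. Hspa1b had 34.2 and 36.9 CPM at 24 h, against 7.84 and 5.68 CPM at 0 h (2.45 ± 0.27, adjusted p = 5.98e-05). Hspa1a had 10.1 and 6.6 CPM at 24 h, against 1.49 and 1.93 CPM at 0 h (2.22 ± 0.46, adjusted p = 0.0106). Its call was kept without replicate 2 at 24 h and lost without any other 1 library (adjusted p up to 0.208, without replicate 2 at 0 h). Between 6 h and 24 h the log2 fold change was -1.51 for Hspa1b and -2.64 for Hspa1a (adjusted p = 0.000905 and 0.000477). In tbGFP-positive cells at 0 h Hspa1b had 141 and 104 CPM and Hspa1a 63.6 and 27.7 CPM. From 0 h to 24 h neither passed in tbGFP-positive cells (-0.37 and -0.6, adjusted p = 0.682 and 0.658). At 24 h both were called higher in tbGFP-positive than in tbGFP-negative cells. The major constitutive chaperones did not pass. Hsp90ab1, a cytosolic HSP90, averaged 2074 ± 127 CPM at 24 h and 2636 ± 210 CPM at 0 h (SD, n = 2 each, adjusted p = 0.373).

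Antioxidant genes under NRF2, the transcription factor that answers oxidative stress, were not raised at 24 h. Of 24 tested members of an NRF2 and antioxidant list none rose and 3 fell, with a median log2 fold change of -0.19. The fit of tbGFP-negative libraries alone called 10 falls and no rise. Hmox1, the heme oxygenase (chr8:75093621-75100589, plus strand), had 57.5 and 58.5 CPM at 24 h, against 177 and 159 CPM at 0 h, a log2 fold change of -1.53 ± 0.2 (adjusted p = 0.000236). At 6 h it stood at 355 and 399 CPM, above 0 h (log2 fold change 1.17, adjusted p = 0.00304). Nfe2l2, which encodes NRF2 itself, followed the same order, with means of 242, 391 and 134 CPM at 0, 6 and 24 h. It was lower at 24 h than at 0 h (-0.86 ± 0.17, adjusted p = 0.00743) and higher at 6 h than at 0 h (0.69, adjusted p = 0.0278). Without replicate 1 at 0 h or replicate 2 at 24 h the late call of Nfe2l2 was lost (adjusted p = 0.0661 and 0.0663). Nqo1, a quinone reductase and classical NRF2 target, had 96.7 and 98.2 CPM at 24 h, against 108 and 131 CPM at 0 h, and did not pass (adjusted p = 0.542). It was called lower in the fit of tbGFP-negative libraries alone (log2 fold change -0.43, adjusted p = 0.02).

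Part of the targets of ATF4, the transcription factor of the amino acid and integrated stress response, fell. Of 24 tested members 9 fell and none rose, the median log2 fold change was -1.38, and 20 of the 24 had a negative value. The fit of tbGFP-negative libraries alone called 16 falls and 1 rise. The count of falls was between 8 and 16 under the other settings and between 6 and 8 when 1 library was left out. At 6 h 2 members were higher and 2 lower than at 0 h, and 10 were lower at 24 h than at 6 h. Atf4 itself had 60 counts at 24 h and 42 at 0 h, 94.1% of them on a transcript annotated with a retained intron, so its messenger RNA was not readable here.

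Chac1, an enzyme that degrades glutathione (chr2:119351229-119354381, plus strand), had the largest fall within the list. It had 6.31 and 3.68 CPM at 24 h, against 121 and 96.4 CPM at 0 h, and the log2 fold change was -4.42 ± 0.44 (adjusted p = 2.3e-05). Trib3, a pseudokinase induced by ATF4, had 31.8 and 26.5 CPM at 24 h, against 95.2 and 118 CPM at 0 h (-1.87 ± 0.29, adjusted p = 0.00128). Slc7a11, the cystine importer, had 1.45 and 2.16 CPM at 24 h, against 13.4 and 7.84 CPM at 0 h (-2.54 ± 0.67, adjusted p = 0.0462, up to 0.346 without 1 library, and 0.0887 at most with all libraries). The letters TGATGNAA, a core of the composite element bound by ATF4 with C/EBP partners, were searched on both strands of the 300 bases around the gene start. They occurred in the promoters of 8 of the 22 list genes with a promoter entry (36.4%), in 3 of 7 that fell, Chac1, Slc7a11 and Trib3, and in 3 of 13 tested ones that did not pass (23.1%). The share was 2.92% over tested genes with an entry and 4.51% over all genes with one. A match is a description of the sequence and not a binding site. These 3 stretches are shown because they belong to the fallen genes with a match, given on the strand of the gene with matches in capitals (RefSeq, GRCm38.p6). The Chac1 and Slc7a11 stretches are the 250 bases before the start that RefSeq gives, and their last 13 bases and last base lie inside the gene as GENCODE draws it. They stand at chr2:119350992-119351241 on the plus strand and chr3:50443614-50443863 on the minus strand. The Trib3 stretch is 30 bases that hold the match, which begins 14 bases past the start, at chr2:152344028-152344057 on the minus strand.
Chac1: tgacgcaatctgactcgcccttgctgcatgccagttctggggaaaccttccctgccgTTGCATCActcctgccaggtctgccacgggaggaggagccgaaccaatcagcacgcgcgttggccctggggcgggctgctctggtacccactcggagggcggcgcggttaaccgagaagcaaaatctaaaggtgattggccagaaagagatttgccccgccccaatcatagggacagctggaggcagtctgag
Slc7a11: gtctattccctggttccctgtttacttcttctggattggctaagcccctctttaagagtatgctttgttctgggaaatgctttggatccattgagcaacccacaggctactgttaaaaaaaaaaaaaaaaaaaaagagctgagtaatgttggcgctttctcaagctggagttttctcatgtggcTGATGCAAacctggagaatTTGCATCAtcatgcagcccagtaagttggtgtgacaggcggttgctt
Trib3: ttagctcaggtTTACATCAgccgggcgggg

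Within the ATF4 list, 2 enzymes of serine synthesis and 1 of the mitochondrial folate branch fell. Phgdh, the first enzyme of serine synthesis (chr3:98313170-98339990, minus strand), had 66.9 and 65.1 CPM at 24 h, against 241 and 246 CPM at 0 h (log2 fold change -1.88 ± 0.25, adjusted p = 0.000288). Psat1, the next enzyme, had 17.9 and 10.9 CPM at 24 h, against 48.5 and 57.4 CPM at 0 h (-1.88 ± 0.31, adjusted p = 0.00222). Mthfd2, a mitochondrial folate enzyme, had 35 and 38.3 CPM at 24 h, against 109 and 112 CPM at 0 h (-1.59 ± 0.22, adjusted p = 0.000416). The values of the groups were apart in each of these genes, as they were, in that direction, in 18.9% of all tested genes. Over the other settings, leaving out 1 library included, the log2 fold changes were -2.06 to -1.82 for Phgdh and -2.39 to -1.68 for Psat1. For Mthfd2 they were -1.78 to -1.54. Psph, the last enzyme of serine synthesis, and the mitochondrial folate enzymes Shmt2 and Aldh1l2 did not pass, with log2 fold changes of -1.43, 0.19 and -2.48 (adjusted p = 0.749, 0.999 and 0.345). Cth, which makes cysteine, averaged 109 ± 0.0714 CPM at 24 h and 228 ± 19.2 CPM at 0 h (SD, n = 2 each, -1.06 ± 0.21, adjusted p = 0.00874). None of these 4 genes passed at 6 h, where the log2 fold changes over 0 h were 0.24 for Phgdh, 0.15 for Psat1, 0.3 for Mthfd2 and 0.33 for Cth (adjusted p of 0.478 or more).

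Of the amino acid carriers in the list, Slc7a1, Slc7a5 and Slc7a11 fell, and Slc7a3 and Slc3a2 did not pass, with log2 fold changes of -1.48 and -1.09 (adjusted p = 0.0852 and 0.483). Slc7a1, the carrier of arginine and lysine, had 178 and 228 CPM at 24 h, against 534 and 534 CPM at 0 h (-1.4 ± 0.18, adjusted p = 0.000181). Slc7a5, the light chain of a carrier of large neutral amino acids, had 267 and 287 CPM at 24 h, against 505 and 479 CPM at 0 h (-0.83 ± 0.17, adjusted p = 0.00825, 0.093 without replicate 1 at 0 h and 0.0772 without replicate 1 at 24 h). Members that did not pass went both ways. Ddit4, an inhibitor of mTOR signalling, averaged 244 ± 2.5 CPM at 24 h and 118 ± 3.76 CPM at 0 h (SD, n = 2 each, adjusted p = 0.0566), and Ddit3, the factor CHOP, averaged 4.23 ± 0.6 CPM at 24 h and 4.77 ± 0.644 CPM at 0 h. Slc38a9, a lysosomal arginine sensor outside the ATF4 list, rose, with 51.9 and 46.4 CPM at 24 h, against 16.4 and 14.1 CPM at 0 h (1.7 ± 0.33, adjusted p = 0.00657, and up to 0.194 without 1 library).

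**Figure D3:**
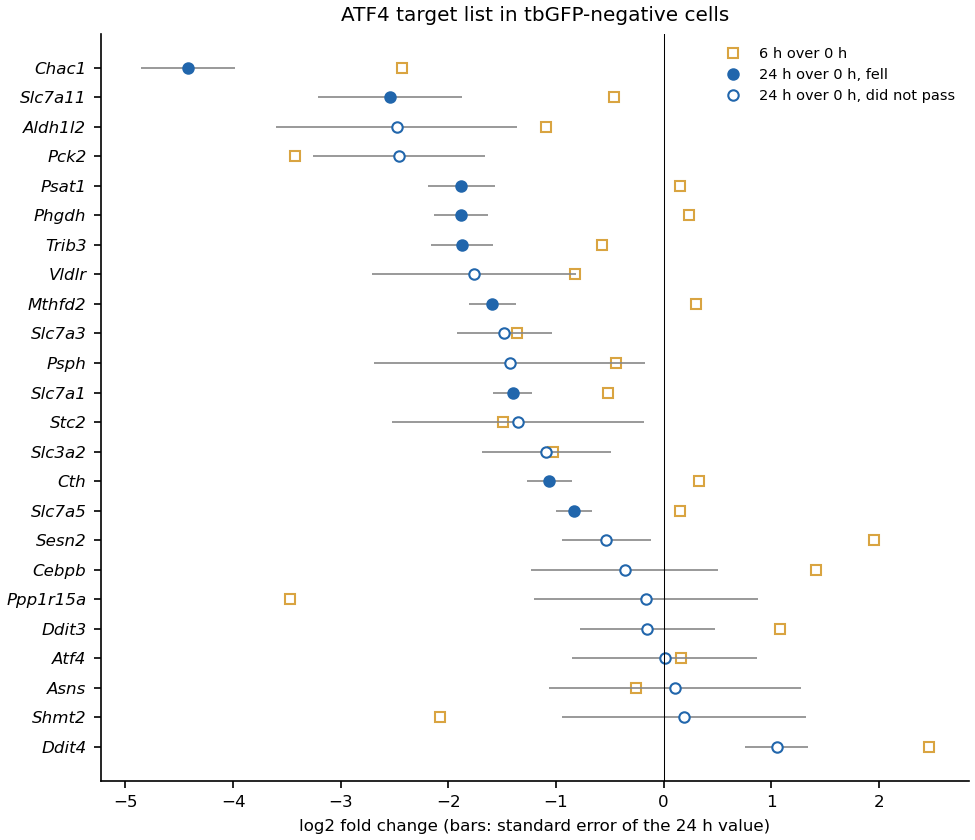
Log2 fold changes (x axis) of the 24 tested genes of the ATF4 target list in tbGFP-negative cells. Circles are 24 h over 0 h with SE bars, filled for the 9 genes that fell and open for those that did not pass, and squares are 6 h over 0 h. Phgdh, Psat1, Mthfd2 and Cth lie near 0 at 6 h and at or below -1.06 at 24 h.

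The fatty acid desaturases Scd1 and Scd2 fell at 24 h. Of 28 tested genes of sterol and fatty acid synthesis 3 fell and none rose, with a median log2 fold change of -0.05, and the fit of tbGFP-negative libraries alone called 9 falls. Scd2, a stearoyl-CoA desaturase (chr19:44293674-44306864, plus strand), had 334 and 392 CPM at 24 h, against 1260 and 1352 CPM at 0 h (-1.85 ± 0.14, adjusted p = 1.08e-06). Scd1, its paralog, had 119 and 116 CPM at 24 h, against 402 and 457 CPM at 0 h (-1.87 ± 0.24, adjusted p = 0.000225). Neither passed at 6 h, with log2 fold changes over 0 h of 0.01 for Scd2 and 0.08 for Scd1. Srebf2, the main regulator of sterol synthesis, had 20.5 and 19.8 CPM at 24 h, against 60.9 and 53.3 CPM at 0 h (-1.5 ± 0.3, adjusted p = 0.00861, and up to 0.0925 without 1 library).

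Of the D-type cyclins Ccnd1 and Ccnd2 fell, and Ccnd3 did not pass (log2 fold change -0.03, adjusted p = 1). Ccnd1, cyclin D1, which drives entry into S phase (chr7:144929931-144939925, minus strand), had 28.9 and 33.9 CPM at 24 h, against 145 and 145 CPM at 0 h (log2 fold change -2.21 ± 0.21, adjusted p = 1.79e-05). At 6 h it stood at 144 and 131 CPM. Ccnd2, cyclin D2, had 1.65 and 0.888 CPM at 24 h, against 17.5 and 14.1 CPM at 0 h (-3.6 ± 0.61, adjusted p = 0.0024, and 0.0533 without replicate 2 at 24 h). Of 14 tested G1 cyclins and CDK inhibitors these 2 fell, and Cdkn1a and Rb1 rose. Rb1, the retinoblastoma protein that restrains S phase entry, had 48.4 and 49.7 CPM at 24 h, against 14.2 and 13.9 CPM at 0 h (1.81 ± 0.28, adjusted p = 0.00116, and 0.0584 without replicate 2 at 0 h).

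Of 24 tested replication genes 2 fell and none rose, and 7 fell in the fit of tbGFP-negative libraries alone. That fit also called 6 falls among genes of G2 and mitosis, and 6 falls and 2 rises among checkpoint and DNA repair genes. Over all its genes it called 9.66% lower and 9.6% higher. Pola1, the catalytic subunit of DNA polymerase alpha, had 685 and 660 CPM at 24 h, against 1183 and 1264 CPM at 0 h (-0.86 ± 0.16, adjusted p = 0.00453). Rrm2, a subunit of ribonucleotide reductase, had 171 and 158 CPM at 24 h, against 252 and 297 CPM at 0 h (-0.74 ± 0.17, adjusted p = 0.0195). Of 22 tested genes of G2 and mitosis Top2a, a topoisomerase, and Mki67, the Ki-67 antigen, fell, with log2 fold changes of -0.63 ± 0.15 and -0.59 ± 0.15 (adjusted p = 0.0275 and 0.0303). Neither passed with library totals alone (adjusted p = 0.0734 and 0.0724). Of 27 tested checkpoint and DNA repair genes Mdc1, a mediator of the response to DNA breaks, alone passed. It had 177 and 192 CPM at 24 h, against 416 and 512 CPM at 0 h (-1.33 ± 0.23, adjusted p = 0.00268). Chek1, the checkpoint kinase downstream of ATR, had 6.21 and 6.72 CPM at 24 h, against 3.73 and 5.34 CPM at 0 h, and did not pass. Atr had 18.1 and 17.8 CPM at 24 h, against 10.8 and 13.1 CPM at 0 h, and did not pass (adjusted p = 0.787). Rrm2, Top2a and Mki67 lost their calls without any 1 of the 4 libraries, with adjusted p up to 0.126, 0.151 and 0.18.

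Naive pluripotency genes were split. Of 21 tested members 2 rose and 1 fell, with a median log2 fold change of -0.13, and the fit of tbGFP-negative libraries alone called 5 in each direction. Tfcp2l1, a naive pluripotency factor (chr1:118627945-118685168, plus strand), had 1695 and 1745 CPM at 24 h, against 994 and 1046 CPM at 0 h (0.75 ± 0.14, adjusted p = 0.00413). Sox2, with the levels given above, rose by 0.69 ± 0.17 on the log2 scale (adjusted p = 0.0336). Klf2, a naive factor, had means of 212, 49.2 and 104 CPM at 0, 6 and 24 h, and was lower at 24 h than at 0 h (-1.02 ± 0.22, adjusted p = 0.0122) and higher at 24 h than at 6 h (1.09, adjusted p = 0.00623). Pou5f1, the factor OCT4, had lower values in both 24 h libraries than in either 0 h library, as did 18.9% of all tested genes. Pou5f1 did not pass (-0.92 ± 0.27, adjusted p = 0.0846), but did in the fit of tbGFP-negative libraries alone (adjusted p = 4.17e-10). Without any 1 of the 4 libraries the calls of Tfcp2l1 and Sox2 were lost, with adjusted p up to 0.129 and 0.587. Klf2 lost its call without 3 of the 4 in turn (up to 0.135, without replicate 1 at 0 h). Sox2 also did not pass with RLE factors, upper-quartile factors, a filter of 30 counts or libraries thinned to one depth (adjusted p up to 0.195).

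Some genes of the formative and primed states fell. Of 18 tested members 4 fell and none rose, the median log2 fold change was -0.65, and 8 fell and 1 rose in the fit of tbGFP-negative libraries alone. Zic2, a zinc finger factor of primed cells (chr14:122475435-122479852, plus strand), had 14.8 and 15.2 CPM at 24 h, against 114 and 92.7 CPM at 0 h (-2.78 ± 0.31, adjusted p = 6.45e-05). Zic5, its neighbour in the same family, had 7.24 and 12.6 CPM at 24 h, against 68.7 and 67.2 CPM at 0 h (-2.78 ± 0.34, adjusted p = 0.000124). Both were already lower at 6 h, with log2 fold changes of -1.5 for Zic2 and -1.43 for Zic5 (adjusted p = 0.00893 and 0.0181), and lower again at 24 h than at 6 h (adjusted p = 0.016 and 0.0182). Lin28a, an RNA-binding protein that blocks let-7 maturation, had 525 and 511 CPM at 24 h, against 1103 and 1112 CPM at 0 h (-1.1 ± 0.15, adjusted p = 0.00037). Utf1, a chromatin factor, had 95.9 and 116 CPM at 24 h, against 258 and 158 CPM at 0 h (-0.97 ± 0.23, adjusted p = 0.0283). Its call was kept without replicate 2 at 0 h and lost without any other 1 library (adjusted p up to 0.488, without replicate 1 at 0 h).

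Of 15 tested genes of FGF signalling the ligands Fgf15 and Fgf4 fell and 1 gene rose, and the fit of tbGFP-negative libraries alone called 5 falls and 1 rise. Fgf5, a ligand of primed cells, did not pass (log2 fold change -2.24, adjusted p = 0.644). Fgf15, a secreted FGF (chr7:144896531-144900953, plus strand), had 2.69 and 3.3 CPM at 24 h, against 37 and 39.8 CPM at 0 h (-3.68 ± 0.39, adjusted p = 4.45e-05). Fgf4, the ligand that primes embryonic stem cells for differentiation, had 350 and 343 CPM at 24 h, against 735 and 775 CPM at 0 h (-1.12 ± 0.18, adjusted p = 0.0015). Dusp4, a phosphatase of MAP kinases, had 95 and 91.3 CPM at 24 h, against 24.3 and 19.3 CPM at 0 h (2.12 ± 0.34, adjusted p = 0.00165, and 0.104 without replicate 2 at 0 h). None of 13 tested genes of LIF and STAT3 signalling passed. Lifr, the LIF receptor, had 330 and 313 CPM at 24 h, against 301 and 322 CPM at 0 h. Of 19 tested BMP, Nodal and WNT targets Cdx1 and Id3 rose and Inhbb fell, and without any 1 library Id3 and Inhbb lost their calls (adjusted p up to 0.347 and 0.199).

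Some genes that had moved at 6 h were back near their starting level at 24 h. Zfp57, a zinc finger protein that guards imprints (chr17:37001163-37010635, plus strand), had 146 and 171 CPM at 0 h, 17.8 and 18.1 CPM at 6 h, and 199 and 230 CPM at 24 h. The 24 h level did not pass against 0 h (log2 fold change 0.44 ± 0.23, adjusted p = 0.452) and was above that at 6 h (3.58, adjusted p = 9.89e-07). Ncl, nucleolin, a factor of ribosome assembly, had means of 612, 1716 and 618 CPM at 0, 6 and 24 h. Its 24 h level did not pass against 0 h (0.01 ± 0.2, adjusted p = 1) and was below that at 6 h (adjusted p = 0.000338). None of 26 tested ribosome biogenesis genes and none of 68 ribosomal protein genes passed at 24 h, while 4 of the 26 had been higher at 6 h. In the fit of tbGFP-negative libraries alone 7 of the biogenesis genes fell and 1 rose, and 10 of the ribosomal protein genes fell and 3 rose. Over all genes of that fit 9.66% fell and 9.6% rose.

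Of 13 tested imprinted genes 2 rose and 2 fell. Meg3 and Rtl1, a noncoding RNA and a protein gene of the same imprinted domain, fell. Meg3 had 95.5 and 113 CPM at 24 h, against 240 and 242 CPM at 0 h (-1.21 ± 0.21, adjusted p = 0.00288), and Rtl1 had 136 and 141 CPM at 24 h, against 252 and 275 CPM at 0 h (-0.93 ± 0.2, adjusted p = 0.0143, and up to 0.108 without 1 library). Igf2r, a receptor that clears IGF2, rose, with 709 and 704 CPM at 24 h, against 396 and 426 CPM at 0 h (0.78 ± 0.16, adjusted p = 0.00835, and up to 0.18 without 1 library). Plagl1, a zinc finger factor, rose with 111 counts at 24 h and 8 at 0 h (3.36 ± 0.86, adjusted p = 0.0404), a call that upper-quartile factors, thinning and the loss of any 1 library ended (adjusted p up to 0.259).

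The remaining lists held few passing genes. No gene passed among 10 of DNA methylation and 17 of splicing factors and their kinases. Of 27 tested repressors of the 2-cell program Rif1 alone rose, with 2926 and 2896 CPM at 24 h, against 1620 and 1885 CPM at 0 h (0.73 ± 0.19, adjusted p = 0.0441, up to 0.415 without 1 library and 0.206 at most with all libraries). Malat1, an abundant nuclear RNA, had 8273 and 9392 CPM at 24 h, against 4346 and 5409 CPM at 0 h (0.86 ± 0.2, adjusted p = 0.0216), and lost its call without any 1 library (up to 0.34). Gas5, a host of small nucleolar RNAs, rose by 0.83 ± 0.17 on the log2 scale (adjusted p = 0.00835, and up to 0.204 without 1 library), with 99.8% of its counts on transcripts annotated with a retained intron. Of 62 tested replication-dependent histone genes Hist3h2a alone rose and none fell, while 20 fell and 4 rose in the fit of tbGFP-negative libraries alone. That fit called 9.66% of all its genes lower and 9.6% higher. Of 11 mitochondrial messenger RNAs mt-Cytb alone fell, and 10 of the 11 had a negative log2 fold change. Of 23 tested genes of glycolysis and hypoxia Pdk1 rose and Egln3 fell, and of 9 tested NF-kB and interferon genes Nfkbia rose. Hist3h2a, mt-Cytb, Pdk1 and Egln3 lost their calls without any 1 library (adjusted p up to 0.164, 0.282, 0.354 and 0.0764). Nfkbia lost its call after thinning (0.0576) and without any 1 library but replicate 1 at 0 h (up to 0.357). Ccn1, a secreted matricellular protein, rose among 14 tested actin, SRF and YAP targets, and Ctsb, a lysosomal protease, among 20 genes of lysosome and autophagy, and both lost their calls without any 1 of the 4 libraries. Among markers of other cell types Krt8 rose in 9 trophectoderm genes, Kdr in 7 germ layer genes, and Taf7l and Slc25a31 in 8 germline genes, where Tuba3a fell. The summed level of 16 germline markers was 57.6 and 70.8 CPM at 24 h, against 148 and 128 CPM at 0 h. Most of the 0 h sum came from Tuba3a, which averaged 28.6 ± 8.22 CPM at 24 h and 112 ± 14.9 CPM at 0 h (SD, n = 2 each). Of the 8 tested germline genes 4 had a positive and 4 a negative log2 fold change, so the lower sum does not describe the list as a group. Apart from Tuba3a, the calls of these marker genes were lost without any 1 of the 4 libraries.

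**Figure D4:**
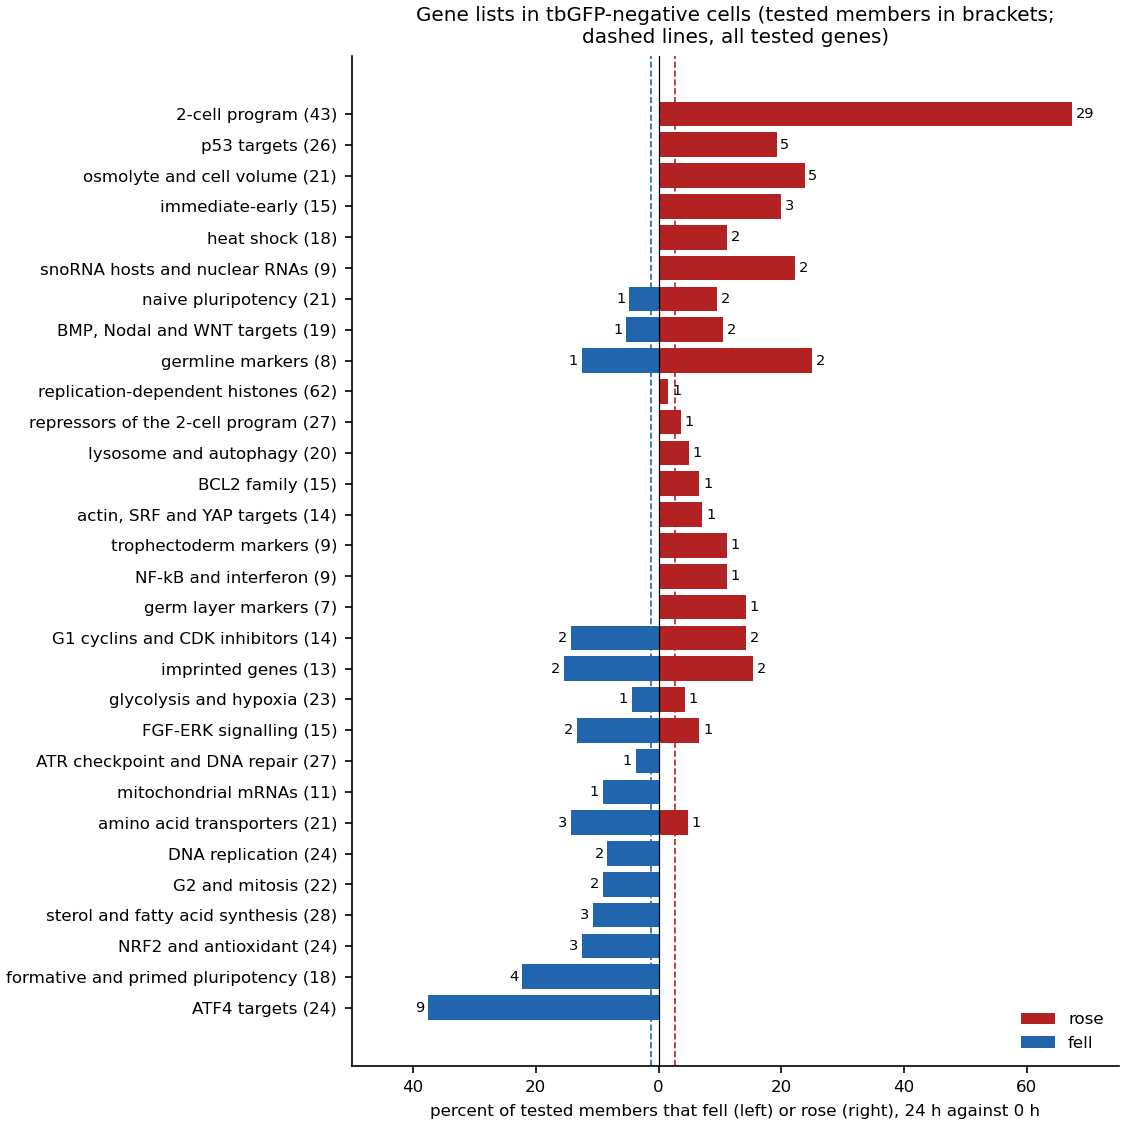
Percent of the tested members of each gene list (rows, tested members in brackets) that fell (blue, to the left) or rose (red, to the right) at 24 h against 0 h in tbGFP-negative cells, with the number of genes at each bar. Dashed lines mark the share over all tested genes, 1.29% lower and 2.7% higher. Lists with no passing gene are left out, and 29 of 43 genes of the 2-cell program rose while 9 of 24 ATF4 targets fell.

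Of the 37 lists, the 2-cell program had the largest share of rises. Of 43 tested members 29 rose and none fell, and the median log2 fold change was 4.64, or 4 with genes that had no counts at 0 h held at their bound. Only 30 of the 43 passed the filter on low counts in the tbGFP-negative libraries alone, and the sort used a reporter of this program. Zscan4d, a zinc finger gene of the 2-cell embryo, had 233 and 205 CPM at 24 h, against 4.85 and 9.09 CPM at 0 h (4.85 ± 0.22, adjusted p = 7.52e-09). Zscan4c had 207 and 197 CPM at 24 h, against 4.11 and 12.4 CPM at 0 h (4.44 ± 0.33, adjusted p = 1.42e-06). Tdpoz3, of a family of TRAF and POZ domain proteins, had 38.7 and 33.5 CPM at 24 h and no counts at 0 h, at least 139-fold higher against a floor of 3 counts over the 0 h group. Duxf3, which encodes the activator DUX, had 20 counts at 24 h and 2 at 0 h, a ratio of 6.54 (95% interval from counting error, 1.59 to 57.7), and did not pass (adjusted p = 0.123).

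The summed level of the 2-cell list was 50.8 and 91 CPM at 0 h, 306 and 289 CPM at 6 h, and 1687 and 1599 CPM at 24 h. In tbGFP-positive cells at 24 h it was 64677 and 62218 CPM. For 36 members with at least 10 CPM in tbGFP-positive cells, the 24 h level in tbGFP-negative cells was a median of 2.43% of that in tbGFP-positive cells, with quartiles of 1.76% and 3.25%. The same share was a median of 0.0567% at 0 h and 0.211% at 6 h. The exceptions chosen after their values were seen were Ddit4l, Pramel7 and Zfp750, at 8.79%, 8.01% and 118%. Whether the counts come from a few cells in the sorted fraction or from a low level in many cannot be told apart in bulk RNA. Genes of the family are near copies of each other. The 239 bases before the starts of Zscan4c (chr7:11005506-11005744, plus strand) and Zscan4d (chr7:11166160-11166398, minus strand) aligned without gaps with 7 differences, in capitals below (RefSeq, GRCm38.p6), and values of single copies are uncertain where the counting could split or drop shared reads.
Zscan4c: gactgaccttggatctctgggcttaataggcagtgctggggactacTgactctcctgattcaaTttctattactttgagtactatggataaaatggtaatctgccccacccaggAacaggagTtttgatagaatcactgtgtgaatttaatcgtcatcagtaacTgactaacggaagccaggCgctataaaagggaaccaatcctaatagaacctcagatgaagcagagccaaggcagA
Zscan4d: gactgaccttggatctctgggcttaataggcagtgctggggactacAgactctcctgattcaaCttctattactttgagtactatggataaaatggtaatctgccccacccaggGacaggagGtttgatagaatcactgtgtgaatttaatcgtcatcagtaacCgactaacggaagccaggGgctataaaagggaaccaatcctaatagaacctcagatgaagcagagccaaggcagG

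The risen genes were divided by the 24 h test between the fractions, so the levels that follow describe that division. At 24 h 1037 genes (5.35%) were called higher in tbGFP-positive than in tbGFP-negative cells and 22 (0.113%) lower. Of the 523 risen genes 263 (50.3%) were among the 1037, and their 24 h level in tbGFP-negative cells was a median of 2.25% of that in tbGFP-positive cells, with quartiles of 1.54% and 3.82% and a range of 0.513% to 56.7%. For the other 260 risen genes the median was 102%, with a range of 20.4% to 320%. Of these 260, 250 also had a positive log2 fold change from 0 h to 24 h in tbGFP-positive cells, as did 121 of the 263. Without the division it was 371 of the 523 risen genes (70.9%). The tbGFP-positive change shares no library with the late one, but shares its 24 h libraries with the test behind the division. The 250 and the 121 are therefore not independent of that division. Over all tested genes 55% had a positive and 44.4% a negative value in tbGFP-positive cells. Of the 250 fallen genes 246 had a negative log2 fold change in tbGFP-positive cells, and 38 were called there, where 48 genes (0.248%) were called lower and 59 (0.304%) higher in all. Across the 250 fallen genes the log2 fold changes of the 2 fractions correlated with Pearson's r of 0.758 and Spearman's rho of 0.683, and across all 19384 genes with 0.271 and 0.324. These are descriptions across genes, which are not independent replicates and were picked by 1 of the 2 values for the falls.

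**Figure D5:**
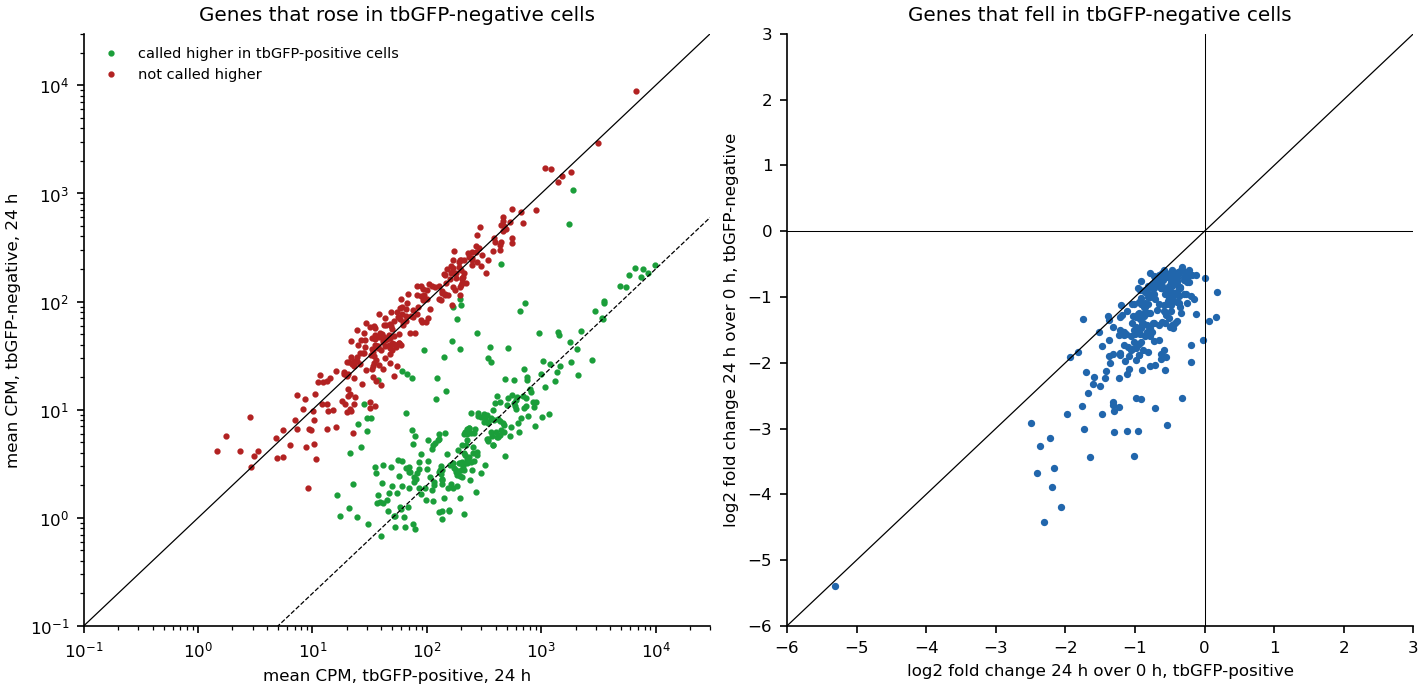
Left, mean CPM at 24 h in tbGFP-negative (y axis, log scale) against tbGFP-positive cells (x axis, log scale) for the 523 genes that rose in tbGFP-negative cells, with green points called higher in tbGFP-positive cells and red points not. The solid line is equality and the dashed line 2% of the tbGFP-positive level. Right, log2 fold changes 24 h over 0 h of the 250 fallen genes in tbGFP-negative (y axis) against tbGFP-positive cells (x axis), with the line of equality.

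The change at 24 h differed between the fractions in 188 genes. The tbGFP-negative change was above the tbGFP-positive one in 184 genes (0.949%), 27 of them of the 2-cell list, and below it in 4 (0.0206%). The 4 genes, named after their values were seen, were Map1b, Rian, Soat2 and Gm44645. Map1b, a microtubule-associated protein, had 195 and 219 CPM at 24 h, against 638 and 674 CPM at 0 h, in tbGFP-negative cells (-1.66 ± 0.14, adjusted p = 3.48e-06). In tbGFP-positive cells it had 723 and 712 CPM at 24 h, against 1100 and 1150 CPM at 0 h, and the difference of the changes was -1.02 ± 0.19 (adjusted p = 0.0125). Rian, a noncoding RNA of the imprinted domain of Meg3, did not pass in tbGFP-negative cells (0.34 ± 0.19, adjusted p = 0.502) and rose in tbGFP-positive cells (1.66, adjusted p = 0.00118). Soat2 and Gm44645 had between 0 and 5.97 CPM in these libraries. For the falls of Phgdh, Chac1, Ccnd1 and Zic2 the difference between the fractions did not pass, with values of -0.94, -2.11, -0.62 and -1.31 (adjusted p = 0.58, 0.155, 0.937 and 0.378). For Slc5a3, Perp and Akr1b3 the difference of the changes was 0.67, 0.43 and 0.33 (adjusted p of 0.943 or more), and for Btg2 it was 1.68 ± 0.37 (adjusted p = 0.0473), with tbGFP-positive cells already at 336 and 294 CPM at 0 h.

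The next 12 genes had the largest fold changes among risen genes not called higher in tbGFP-positive cells, with non-overlapping libraries and at least 10 CPM at 24 h. They were picked after values were seen, and a ranking by fold change favours genes with few counts at 0 h. Moxd1, a monooxygenase (chr10:24223517-24302790, plus strand), had 80 and 80.2 CPM at 24 h, against 2.24 and 2.5 CPM at 0 h (5.04 ± 0.87, adjusted p = 0.00273). Alox12e, an epidermal lipoxygenase, had 33.2 and 41.2 CPM at 24 h, against 1.87 and 1.59 CPM at 0 h (4.45 ± 0.51, adjusted p = 7.74e-05). Among them were regulators of development. Wnt8a, a WNT ligand, had 15.7 and 23.5 CPM at 24 h and 3 counts in all at 0 h, a ratio of 73.4 (95% interval from counting error, 24.9 to 358; adjusted p = 0.000554). Cdx1, a caudal homeobox factor, had 23.5 and 18.1 CPM at 24 h, against 0 and 0.568 CPM at 0 h (5.65 ± 0.87, adjusted p = 0.00103). Tbx20, a T-box factor of the heart, had 24 and 26.3 CPM at 24 h, against 0.747 and 1.14 CPM at 0 h (4.61 ± 0.51, adjusted p = 6.28e-05), and Gcm1, a placental factor, had 25.8 and 26.9 CPM at 24 h, against 0.747 and 1.36 CPM at 0 h (4.5 ± 0.77, adjusted p = 0.00257). Gm26270, a small nucleolar RNA gene, had 87.2 and 108 CPM at 6 h and 25.6 and 25.2 CPM at 24 h, with 1.12 and 0.909 CPM at 0 h (4.69 ± 0.38, adjusted p = 2.8e-06). Asb12, an adaptor of ubiquitin ligases, had 11.1 and 10.8 CPM at 24 h and no counts at 0 h, at least 41.8-fold higher. The other 4, Rnf182, Mobp, Gm28502 and Abca14, had between 8.37 and 15.3 CPM at 24 h and 2 to 4 counts in all at 0 h, and each lost its call without at least 1 library (adjusted p up to 0.307). Moxd1 and Gcm1 lost their calls without either 0 h library (adjusted p up to 0.119 and 0.0768), and Wnt8a and Asb12 without replicate 2 at 0 h (0.053 and 0.0842).

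The largest falls were picked by fold change, a ranking that favours genes with few counts at 24 h. Apart from Chac1, Fgf15 and Ccnd2, they were Gm43293, Vax2os, Ubap1l, Gm8424, Rims4, Tbc1d9, Slfn9, Fam84b and Osm. Slfn9, a Schlafen family gene, had 10.8 and 9.26 CPM at 24 h, against 78.8 and 86 CPM at 0 h (-3.04 ± 0.4, adjusted p = 0.00027). Ubap1l, a ubiquitin-associated protein gene, had 1.65 and 2.41 CPM at 24 h, against 31.7 and 28.7 CPM at 0 h (-3.89 ± 0.57, adjusted p = 0.000661). Osm, which encodes the cytokine oncostatin M, had 2.48 and 2.16 CPM at 24 h, against 19 and 18.6 CPM at 0 h (-3.01 ± 0.75, adjusted p = 0.0349, and up to 0.266 without 1 library). Gm43293, a noncoding RNA gene, had 4 counts at 24 h and 102 at 0 h (-5.4 ± 1.14, adjusted p = 0.0115, and up to 0.129 without 1 library). Slfn9 and Ubap1l kept their calls without any 1 of the 4 libraries, and the other 7 of these genes lost theirs without at least 1.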

How the data were processed

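Total RNA of 12 libraries in 6 groups was sequenced from a stranded kit, per the labels' protocols. The authors deposited raw read counts per transcript, unnormalized. The submitters' processing notes name FastQC, HISAT2, featureCounts and DESeq2 and the mm10 build. How featureCounts treated strand and reads shared by overlapping transcripts is not given in the sources used here.

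Counts of 142446 transcripts were summed per gene through GENCODE M21 (GRCm38), with 910 transcripts left unmatched, which held 0.0606% to 0.0903% of counts. Of 55266 genes, 19384 reached 10 counts in 2 or more libraries and were tested with edgeR 4.0.16 (R 4.3.3, limma 3.58.1), using TMM factors, a robust quasi-likelihood fit of 6 group means over all 12 libraries, and Benjamini-Hochberg adjustment. CPM were computed here and are TMM-scaled. Totals were 2306870 to 7900178 counts per library, the common dispersion was 0.208, and intervals and floors cover counting error only. On simulated counts of the same 19384 genes with 200 changed, the late comparison called 13% of 2-fold and 60% of 4-fold changes. Of all its calls 6.41% were false. The changed genes were drawn only from those above a minimum mean count, so these shares do not cover genes with few counts. Apart from the set changes, each simulated gene had the same mean level in all 12 libraries. Its spread was taken from the trend over genes. The shares come from a single run and hold for that setting, which lacks the differences between real groups and the spread of single genes.

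Groups came from the time and sort labels. Genes were named by a rule: the 12 largest called rises and 12 largest called falls without overlap of libraries and with at least 10 CPM in the higher group, up to 6 called members of each list with the smallest p, and a panel of 34 genes. The members and the 37 lists were chosen with earlier results of these data known, and other named genes after their values were seen. Alternatives were RLE, upper-quartile and total-count scaling, DESeq2 1.42.0, other filters, other sets of libraries, thinning to 2305061 counts, the replicate number as a block, and leaving out each library. Some genes of the lists are not reported here by name.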

Additional observations from a re-analysis of the deposited data

Results flagged for a closer look

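The change at 24 h against 0 h differed between tbGFP-negative and tbGFP-positive cells in 188 genes by the interaction term of edgeR's quasi-likelihood test. Values below are the log2 fold change in tbGFP-negative minus that in tbGFP-positive cells. Genes of the Zscan4 and Tdpoz families differed by 5.04 for Zscan4c, 5.81 for Zscan4d, 5.52 for Zscan4f and 4.4 for Tdpoz4. Other genes high in tbGFP-positive cells differed by 5.01 for Gm12794, 5.76 for Gm13119, 5.1 for Gm5662, 5.87 for Gm5788, 5.32 for Gm8300 and 5.83 for Usp17la, and Tbx20 by 3.22. Tdpoz3, Tcstv3 and Asb12 had no counts at 0 h in tbGFP-negative cells, so their fitted differences of 9.42, 7.24 and 8.32 depend on the prior count and are no measured size. With the 0 h level held at a floor of 3 counts over the group, the differences were at least 5.79 for Tdpoz3, 3.59 for Tcstv3 and 4.68 for Asb12. The inducible HSP70 genes Hspa1a and Hspa1b each differed by 2.82, and the antiproliferative factor Btg2 by 1.68. Groups of 2 libraries were too small to single out a library within a group.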

How the results depend on the processing

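Of the 103 named genes called in the late comparison, 40 kept their call under every alternative, 39 lost it only when a library was left out, and none changed direction. The 523 rises became 1594 with tbGFP-negative libraries alone, 1535 with the 4 libraries compared, 1054 without the tbGFP-positive libraries at 6 h, 260 without genes higher in tbGFP-positive cells, and 150 to 280 without 1 library. The 250 falls became 408 with upper-quartile factors, 566 with DESeq2, 473 without a filter, 409 with at least 30 counts, 387 after thinning, 1603, 1712 and 869 with the first 3 sets of libraries, and 89 to 120 without 1 library.

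For 24 h against 6 h, the 701 higher genes became 1392 with library totals, 1188 with DESeq2, 2699 with tbGFP-negative libraries alone, 1828 without the tbGFP-positive libraries at 6 h, 3180 with 4 libraries, and 247 to 300 without 1 library. The 833 lower genes became 308, 3007, 2016, 3147 and 260 to 384 under the same settings without DESeq2. For 6 h against 0 h, the 625 higher genes became 339 with library totals, 2456, 1517 and 2154 with those sets of libraries, and 117 to 186 without 1 library. The 235 lower genes became 571 with library totals, 593 with DESeq2, 451 without a filter, 1892, 1026 and 1790 with those sets, and 35 to 58 without 1 library.

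Of the fraction difference, the 184 higher genes became 292 without a filter, 283 without the tbGFP-positive libraries at 6 h, 122 after thinning, and 75 to 151 without 1 library, with the lowest without replicate 2 at 0 h of tbGFP-negative cells. The 4 lower genes became 8 with upper-quartile factors, 17 with DESeq2, 20 without a filter, 38 without the tbGFP-positive libraries at 6 h, 7 after thinning, 23 with 8 libraries, and 0 to 11 without 1 library. Replicate numbers did not pair the libraries, with correlations of -0.0401 to 0.0297. With the replicate block the late comparison had 484 rises and 228 falls, and the 4 lower genes became 2. The 7 named genes whose calls it ended were Cdkn1a, Kdr, Osm, Plagl1, Slc7a11, Tbc1d9 and Zfp352, with adjusted p of 0.0503 to 0.0716.

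Genes that did not pass and changed sign had log2 fold changes of 0.01 to 0.35 as reported. Those of Nfat5 and Sgk1 were imprecise, with SE of 1.3 and 1.31. Atf4 was -0.06 with RLE factors, -0.17 with upper-quartile factors, -0.07 with DESeq2, -0.12 without a filter or without the tbGFP-positive libraries at 6 h, -0.11 with at least 30 counts, -0.14 with tbGFP-negative libraries, -0.16 after thinning or with 4 libraries, -0.03 with the replicate block, and -0.30 to 0.24 without 1 library, with -0.24 without replicate 1 at 0 h. In the same order without the block, Lifr was -0.03, -0.14, -0.03, -0.08, -0.07, -0.08, -0.08, -0.15, -0.10 and -0.10 to -0.00, and Ncl was -0.06, -0.17, -0.06, -0.12, -0.10, -0.11, -0.11, -0.09, -0.13 and -0.12 to -0.03. Nfat5 was -0.01 with 4 libraries and -0.31 to 0.68 without 1 library, where Sgk1 was -0.46 to 1.36 and Bbc3 -0.02 to 0.49, and Zfp42 -0.14 after thinning. The cause of these shifts was not tested.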
